A study of Homo sapiens with 2 samples.

Results

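Tight junctions seal the space between neighbouring epithelial cells close to their apical border. Claudins and occludin are membrane proteins of the junction, and claudins set which ions and solutes pass between the cells. Zonula occludens proteins such as ZO-1, encoded by TJP1, lie under the membrane and link the junction to actin, and cingulin, encoded by CGN, joins this cytoplasmic plaque. The expression of 9 tight junction genes was compared between HSC-3 cancer cells on Myogel and the same cells on plain plastic, namely CLDN1, CLDN4, CLDN7, CLDN12, OCLN, TJP1, TJP3, F11R and CGN. The genes had been listed by name, and their measurements were all probe sets that the annotation of the array assigns to that gene alone. For 8 of the 9 genes there were 16 such probe sets, out of 41091 probe sets for 19775 genes in all. F11R, which encodes the junctional adhesion molecule JAM-A, had none in the annotation used, and it was not analysed here.

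HSC-3 is an established line from an aggressive human tongue squamous cell carcinoma. On both surfaces the cells were a puromycin-resistant derivative that expressed red fluorescent protein from a lentivirus. They grew in medium with serum and hydrocortisone. The compared groups were cells on a coating of Myogel, a protein extract of human uterine leiomyoma tissue, and cells on uncoated plastic, and RNA was taken the next day. RNA of 3 wells was pooled for each surface and hybridised to 1 Affymetrix array, so that each value is a single measurement without replicate error and no test between the surfaces was possible. In bulk RNA of this kind, fewer cells expressing a gene and less RNA per cell cannot be told apart.

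The intensities are linear values with a floor of 1, and the median over all probe sets was 52.5 on Myogel and 59.7 on plastic. The fold change (FC) is the Myogel value over the plastic value, and FC 1.5 or more in either direction was taken as the threshold. The median log2 FC of all probe sets was -0.11, which is the level of the arrays as a whole but not at every signal. As a description of the spread, each log2 FC is set beside a range that covered 95% of the 1000 probe sets closest to it in signal. The signal of a probe set is its geometric mean over both arrays, and the median signal was 53.8. For probe sets with 1 gene, the median log2 FC was -0.06 at or above this signal and -0.29 below it. Signals of different probe sets are not compared as levels of their genes. The epithelial origin of the RNA was visible in both arrays. Of 12 epithelial and squamous markers, 10 were measured and lay between 923 and 18224 on Myogel and between 972 and 18856 on plastic, with 0 past FC 1.5 in either direction. The 6 markers of smooth muscle, the tissue type of Myogel, summed to 530.3 on Myogel and 612 on plastic, with 1 higher, 2 lower and CNN1 at the floor on Myogel. The sums were 711 on Myogel and 709 on plastic for 6 fibroblast markers, 335 on Myogel and 429 on plastic for 6 endothelial markers (1 higher, 4 lower, among them CLDN5), and 655 on Myogel and 668 on plastic for 5 blood markers. All 12 DapX, LysX, PheX and ThrX spike-in probe sets for labelling were lower on the Myogel array, with a median log2 FC of -1.70. The r2-Bs probe sets for the same spike-ins were lower as well. The hybridisation controls bioB, bioC and bioD had log2 FCs between -0.51 and -0.23, and those for cre between -0.09 and 0.09. The probe sets at the 3′ and 5′ ends of ACTB gave a ratio of 6.10 on Myogel and 3.19 on plastic, and those of GAPDH gave 1.22 on Myogel and 1.10 on plastic. The part of these array differences in the tight junction values was not tested.

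The sequences upstream of the start sites of CGN, OCLN and TJP1 are shown because CGN had higher values on Myogel in both of its probe sets, OCLN had lower values in most of its probe sets, and TJP1 had nearly equal values in its brightest probe set. They are the 250 bases before the start site from RefSeq (GRCh38.p14), the most upstream site where a gene has several, and capitals mark the E-box CAGGTG or its reverse complement CACCTG. This E-box is the motif bound by the Snail and ZEB repressors of epithelial genes. The CGN sequence is on the plus strand at chr1:151511137-151511386, the OCLN sequence on the plus strand at chr5:69492297-69492546 and the TJP1 sequence on the minus strand at chr15:29969050-29969299.
CGN: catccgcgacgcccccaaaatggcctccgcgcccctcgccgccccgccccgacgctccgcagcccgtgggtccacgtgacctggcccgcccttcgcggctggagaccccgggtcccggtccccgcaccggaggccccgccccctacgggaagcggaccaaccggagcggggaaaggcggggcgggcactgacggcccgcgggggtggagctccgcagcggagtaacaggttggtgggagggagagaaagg
OCLN: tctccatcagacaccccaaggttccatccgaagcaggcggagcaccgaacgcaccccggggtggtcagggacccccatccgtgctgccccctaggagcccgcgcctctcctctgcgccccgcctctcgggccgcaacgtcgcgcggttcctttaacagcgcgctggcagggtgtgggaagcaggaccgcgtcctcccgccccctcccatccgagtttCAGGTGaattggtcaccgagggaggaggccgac
TJP1: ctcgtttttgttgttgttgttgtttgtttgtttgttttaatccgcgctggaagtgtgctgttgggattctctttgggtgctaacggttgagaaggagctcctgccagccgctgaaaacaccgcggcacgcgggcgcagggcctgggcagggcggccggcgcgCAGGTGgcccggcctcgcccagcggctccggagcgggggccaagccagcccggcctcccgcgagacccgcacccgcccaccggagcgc
The E-box was present 1 time in the OCLN sequence and 1 time in the TJP1 sequence, and 0 times in the CGN sequence. The GC box GGGCGG, searched on both strands, was present 5 times for CGN, 1 time for OCLN and 2 times for TJP1. Windows were found for 8 of the 9 genes, with 14 start sites. At least 1 E-box was in 5 of these 14 windows (35.7%), against 17.5% of 35116 windows of the same length, and at least 1 GC box in 10 (71.4%), against 42.6%. Windows of the same gene were counted separately and are not independent, and the difference in these shares was not tested. The windows of CGN, OCLN and TJP1 held 76.0%, 68.8% and 66.8% G and C. The highest number of E-boxes, 4, was in the second window of CLDN7. The second windows of OCLN and TJP3 held 1 each. All other windows not shown held 0, among them the other windows of TJP1. The sequences shown were chosen by the values of their genes, and a link between motif and change was not tested. Which start sites these cells use was not determined. These matches describe the letters only, and binding was not measured.

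The claudins with bright signals had close to the same intensity on both surfaces. CLDN1, a barrier-forming claudin of stratified epithelium, had an intensity of 2650 on Myogel and 2610 on plastic in probe set 222549_at. Its log2 FC was 0.02, within the range of -0.38 to 0.38 for its signal. Its dimmer probe set 218182_s_at had 132 on Myogel and 168 on plastic, a log2 FC of -0.35 within a range of -0.88 to 0.63. CLDN1 was thus within FC 1.5 in both probe sets, which differed in direction. CLDN7, a claudin found along much of the epithelial cell border, had 1915 on Myogel and 2169 on plastic (202790_at), a log2 FC of -0.18 within a range of -0.43 to 0.38. CLDN12, a claudin that lacks the usual C-terminal motif for binding ZO proteins, had 1729 on Myogel and 1827 on plastic (223249_at), a log2 FC of -0.08 within a range of -0.42 to 0.39. The sign for CLDN12 turned when the median log2 ratio of the arrays was set to 0, with a log2 FC of 0.03. A further probe set that matches CLDN12 together with PTTG1IP2 was left out by the rule, and it had 149 on Myogel and 132 on plastic.

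CLDN4, a claudin of simple and stratified epithelia, gave dim signals that went both ways. Probe set 1569421_at had 54.1 on Myogel and 35.0 on plastic, which is 1.55-fold higher on Myogel. The range for this signal was wide, from -1.46 to 1.39 on the log2 scale, and the log2 FC of 0.63 lay inside it. Probe set 201428_at had 40.0 on Myogel and 43.4 on plastic, with a log2 FC of -0.12, which became 0.12 with quantile normalization and 0.17 with loess centring. The higher value of CLDN4 therefore stood in 1 of its 2 probe sets, and both lay below the median signal.

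OCLN encodes occludin, a membrane protein with a MARVEL domain that regulates the junction, and 3 of its 4 probe sets had lower values on Myogel. The brightest, 227492_at, had 234.8 on Myogel and 324 on plastic, which is 1.38-fold lower, with a log2 FC of -0.46 within the range of -0.70 to 0.61. Probe set 231022_at had 51.7 on Myogel and 77.9 on plastic and was 1.51-fold lower, and probe set 235937_at had 10.9 on Myogel and 28.1 on plastic and was 2.59-fold lower. The probe set 209925_at was the exception, with 20.5 on Myogel and 16.8 on plastic. Its log2 FC of 0.29 became 0.66 with quantile normalization and 0.67 with loess centring, both past FC 1.5. The 3 lower probe sets kept their direction under quantile normalization, loess centring and centring on the median. The log2 FC of the brightest was then -0.40, -0.39 and -0.36, and that of 231022_at came within FC 1.5. None of the 4 lay outside the range for its signal, which was -2.70 to 2.35 for the dimmest.

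The zonula occludens genes differed between probe sets. TJP1 had 4335 on Myogel and 4193 on plastic in its brightest probe set 202011_at, a log2 FC of 0.05 within a range of -0.35 to 0.30. In probe set 214168_s_at it had 392 on Myogel and 599 on plastic, a 1.53-fold lower value with a difference of -207 linear units. This log2 FC of -0.61 lay at the edge of its range of -0.63 to 0.61, and it was -0.58 with quantile normalization, -0.57 with loess centring and -0.51 with the arrays centred on the median, each within FC 1.5. The suffix _s_at marks a probe set that may detect several transcripts. The mean over both probe sets of TJP1 was -0.28. TJP3, which encodes the related scaffold ZO-3, had 29.1 on Myogel and 47.9 on plastic in probe set 35148_at, which is 1.65-fold lower, and 6.48 on Myogel and 7.99 on plastic in probe set 213412_at. The log2 FC of 35148_at was -0.46 with quantile normalization and -0.42 with loess centring, both within FC 1.5. Both signals were below the median, the log2 FC of -0.72 for the brighter one lay within a range of -1.58 to 1.38, and the log2 FC of the dimmer one turned from -0.30 to 0.09 after quantile normalization.

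CGN was the member with higher values on Myogel in all of its probe sets. Probe set 223232_s_at had 252 on Myogel and 159 on plastic, a 1.59-fold higher value. Its log2 FC of 0.67 lay just above the range of -0.81 to 0.65 for its signal, and this was the 1 of 16 member probe sets outside its range. By definition the range holds 95% of the probe sets nearest in signal, so that 1 of 16 outside is near the share built into it. Probe set 223233_s_at had 276 on Myogel and 230.5 on plastic, a log2 FC of 0.26 within a range of -0.68 to 0.70. Under quantile normalization, loess centring and centring on the median the log2 FCs of CGN were between 0.34 and 0.78 and kept their direction.

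**Figure D1:**
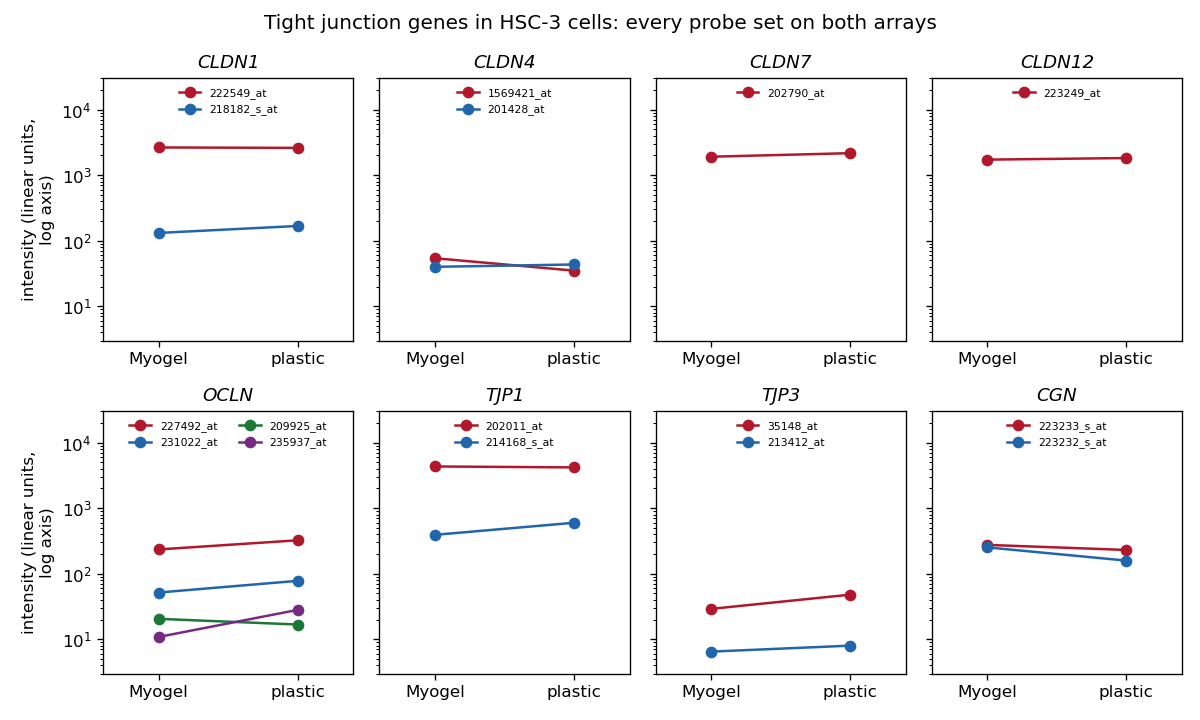
Intensity of every tight junction probe set (y axis, linear units on a log axis) on the Myogel array (left) and the plastic array (right), with 1 panel per gene, 1 colour per probe set and lines joining the values of a probe set. The lines of the brightest probe sets of CLDN1, CLDN7, CLDN12 and TJP1 are nearly flat, both lines of CGN are higher on Myogel, and 3 of the 4 lines of OCLN are lower on Myogel.

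Over the 16 member probe sets, 2 passed FC 1.5 with higher values on Myogel (12.5%) and 4 with lower values (25.0%). Of all 41091 probe sets with 1 gene, 12.3% were higher and 21.8% were lower by this threshold, so that the shares of the members were near those of the arrays. After quantile normalization or loess centring, 3 member probe sets were higher and 1 was lower. The shares of all probe sets under these scalings were not computed. With the deposited values, 1 of the 10 member probe sets that reached the median signal was higher and 2 were lower. Of all probe sets with 1 gene that reached it, 3.05% were higher and 7.47% were lower. Of the 6 member probe sets below the median signal, 1 was higher and 2 were lower, against 24.0% higher and 40.0% lower of all dim probe sets. FC 1.5 together with a difference of 100 linear units or more was met by 1 member probe set, 214168_s_at of TJP1, and by 1.72% of all probe sets with 1 gene.

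When each gene was represented by its brightest probe set, 1 of 8 genes was higher (CLDN4) and 1 was lower (TJP3), against 9.71% higher and 17.5% lower of 19775 genes. With quantile normalization or loess centring 1 member gene was higher and 0 were lower, since TJP3 came within FC 1.5. The shares of all genes under these scalings were not computed. The median log2 FC of the 8 genes was -0.03, beside -0.07 for all genes. The 4 probe sets with a signal over 1000, of CLDN1, CLDN7, CLDN12 and TJP1, had log2 FCs between -0.18 and 0.05. Of the 6 members with more than 1 probe set, 4 had probe sets on both sides of 0 (66.7%), and so had 62.1% of the 10523 such genes on the arrays. The exceptions were CGN, with both values higher, and TJP3, with both lower.

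**Figure D2:**
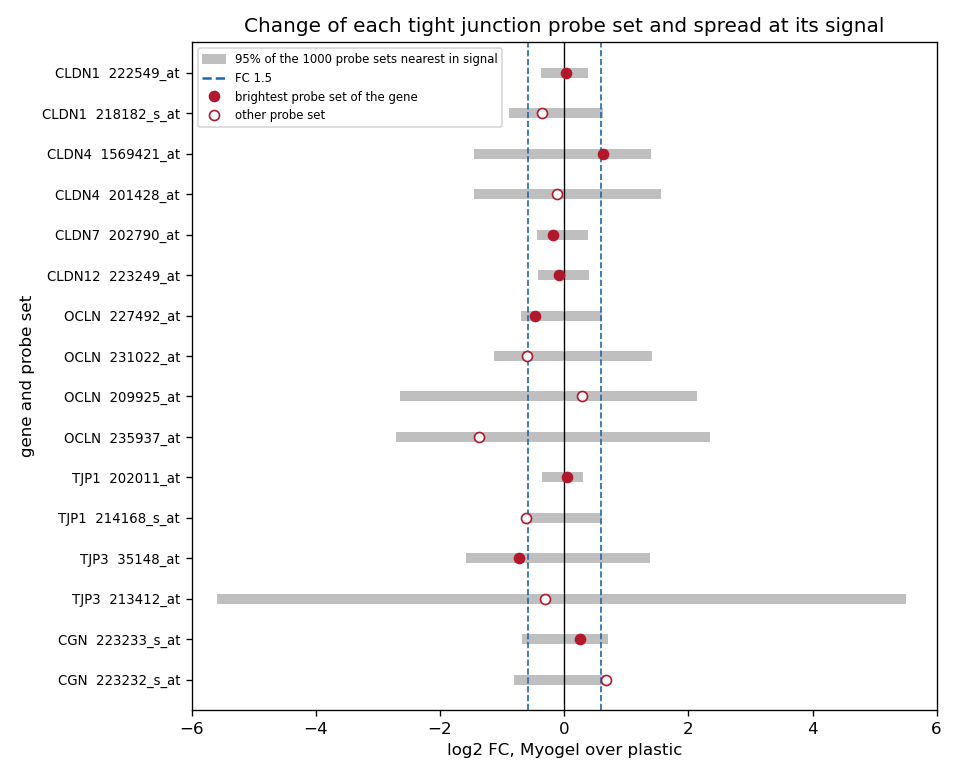
Log2 FC of Myogel over plastic (x axis) for the 16 tight junction probe sets (y axis, by gene), with filled points for the brightest probe set of a gene and open points for the others. Grey bars span 95% of the 1000 probe sets nearest in signal and dashed lines mark FC 1.5. Only probe set 223232_s_at of CGN lies outside its bar, and the bars widen to -5.59 and 5.51 for the dimmest TJP3 probe set.

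Other genes of the tight junction were described from a list of 56, of which 48 were measured. With the brightest probe set, 3 were higher, 4 were lower and 41 were within FC 1.5, which is 6.25% and 8.33%, against the 9.71% and 17.5% of all genes given above. After quantile normalization 7 were higher and 3 were lower, but the shares of all genes under that scaling were not computed. The median log2 FC of these 48 genes was 0.05. The 7 genes past the threshold were CLDN3, CLDN14 and PARD3B, which were higher, and CLDN2, CLDN5, JAM2 and IGSF5, which were lower, and of these PARD3B alone reached the median signal. Of the 30 genes that reached it, 1 was higher, 0 were lower and 29 were within FC 1.5, against 2.26% higher and 4.83% lower of all genes that reached it.

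Among the 16 other claudins measured, 2 were higher and 2 were lower (12.5% each), near the 9.71% and 17.5% of all genes. The 4 that reached the median signal had log2 FCs between -0.06 and 0.51. CLDN3, a close relative of CLDN4, had 19.3 on Myogel and 11.2 on plastic in its brighter probe set, and 1.46 on Myogel and 3.76 on plastic in the other. CLDN6, a claudin of embryonic epithelium, was listed at the floor of 1 on plastic and had 145 on Myogel in probe set 208474_at, so that no size of change is given. Its other probe set had 17.0 on Myogel and 23.8 on plastic and went the other way.

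The relatives of occludin were within FC 1.5 in their brightest probe sets. MARVELD2, which encodes tricellulin of the contacts where 3 or more cells meet, had 1306 on Myogel and 1486 on plastic in its brightest probe set and 408 on Myogel and 407 on plastic in the other. MARVELD3, a further protein with the MARVEL domain, had 445 on Myogel and 343 on plastic, a log2 FC of 0.37, and 128 on Myogel and 114 on plastic in the next probe set, while its dimmest, below the median signal, gave 24.3 on Myogel and 44.8 on plastic and was 1.85-fold lower. Of the 5 genes for MARVEL proteins and angulins, 5 were within FC 1.5 in the brightest probe set. By the same measure 9.71% of all genes were higher and 17.5% were lower.

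Of the 5 genes for immunoglobulin-like adhesion proteins of the junction, 2 were lower on Myogel in the brightest probe set. Both lay below the median signal, where 40.2% of all genes were lower and 23.0% were higher. CXADR had 1895 on Myogel and 1867 on plastic in its brightest probe set. Its dimmest, 1555716_a_at, also above the median signal, had 62.0 on Myogel and 111 on plastic and was 1.79-fold lower. This log2 FC of -0.84 lay within a range of -1.08 to 0.96. JAM2, a relative of F11R, had 6.47 on Myogel and 34.9 on plastic, and its other probe set had the floor value of 1 on Myogel and 10.7 on plastic. These values lay near the floor, where the range for the brighter one reached from -2.80 to 2.59 on the log2 scale and held its log2 FC of -2.43. JAM3, a further relative, had 87.4 on Myogel and 103 on plastic in its brightest probe set, a log2 FC of -0.24, then 28.0 on Myogel and 48.3 on plastic, and 2.55 on Myogel and the floor value of 1 on plastic in the third.

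All 12 measured genes for plaque and signaling proteins were within FC 1.5, with log2 FCs between -0.30 and 0.14 for the 10 that reached the median signal. Of all genes that reached it, only 2.26% were higher and 4.83% were lower. CGNL1, a paralogue of CGN, had 34.7 on Myogel and 30.2 on plastic, and 24.7 on Myogel and 5.39 on plastic in its dimmer probe set. Both were higher on Myogel, as for CGN, but they lay below the median signal and within ranges of -1.78 to 1.59 and -3.50 to 2.97.

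Of the 10 genes of the polarity complexes, which place the junction at the apical border, 9 were within FC 1.5 and 1 was higher. All 10 reached the median signal, where 2.26% of all genes were higher and 4.83% were lower. The higher gene was PARD3B, a relative of the polarity scaffold PARD3, with 113 on Myogel and 66.6 on plastic in its brightest probe set. Its log2 FC of 0.77 lay within the range of -1.07 to 0.93, and the other 4 probe sets of PARD3B had log2 FCs between -0.57 and 0.35. PATJ, a scaffold of the Crumbs complex, had 593 on Myogel and 528 on plastic in its brightest probe set, while probe set 214493_s_at had 174.5 on Myogel and 295 on plastic, a 1.69-fold lower value. Its log2 FC of -0.76 lay just below the range of -0.74 to 0.61. The remaining probe sets of PATJ were all lower on Myogel, with log2 FCs between -1.54 and -0.13. The mean log2 FC over its 6 probe sets was -0.53. Of 111 probe sets of the 48 genes, 2 lay outside the range that holds 95% at their signal, that of PATJ and that of CLDN6. FC 1.5 and a difference of 100 linear units in any probe set was met by 2 of the 48 genes, CLDN6 and PATJ, against 3.34% of 19775 genes.

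**Figure D3:**
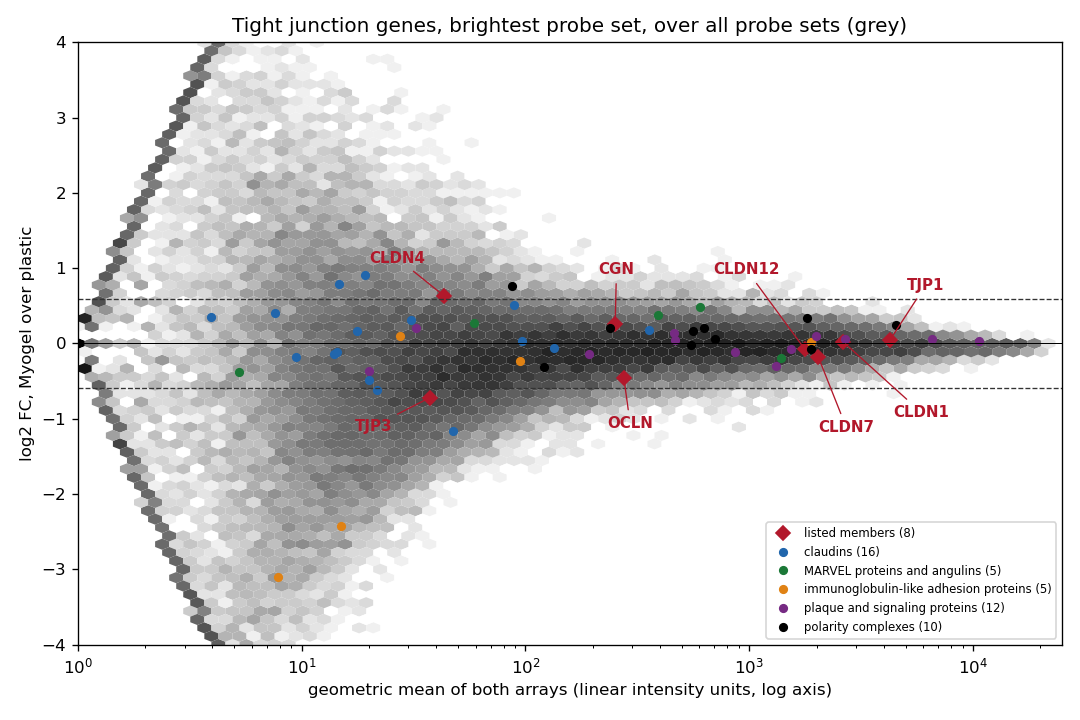
Change in expression as log2 FC (y axis, Myogel over plastic) against signal (x axis, geometric mean of both arrays in linear units, log axis), for the brightest probe set of each tight junction gene, with all probe sets in grey and FC 1.5 as dashed lines. Red diamonds are the 8 measured members and dots the 48 other genes by role. To the right of a signal of 1000 the tight junction genes lie close to 0, and the points beyond the dashed lines have signals under 100.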

How the data were processed

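RNA of HSC-3 cells was hybridised to Affymetrix U133 Plus 2.0 arrays, 1 for Myogel and 1 for plastic, assigned by the sample titles. A protocol label names uncoated plates for both, against the title of the Myogel sample. The authors produced the deposited linear intensity values with dChip, and its version, model and normalization were not given in the sources used here. No further scaling was applied. The lowest value, 1, was held by 4.73% of 54613 probe sets on Myogel and 4.42% on plastic. The number of arrays limits the precision, and detection calls were not used.

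Probe sets were named from the platform annotation, with symbols updated by Entrez identifier through RefSeq (GRCh38.p14). Of the probe sets, 41091 had 1 symbol, 1801 had several and 11721 are unnamed here. A gene was represented by its brightest probe set, by mean log2 value. No p-value was computed. The members and lists were chosen with earlier results of these data known. Named were all members, the closest relatives except 1 that is not reported here, genes of the wider list past FC 1.5 whose brightest probe set reached the median signal, and those with any probe set past FC 1.5 and 100 linear units. The roles in the wider list were assigned after the data were seen. Promoter windows came from the RefSeq table.

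The alternatives were quantile normalization, loess centring (span 0.3), centring on the median, offsets of 16 and 50, a signal filter, leaving out _x_at, _s_at and _a_at probe sets, FC 1.2 and FC 2, a difference of 100 linear units, and the mean or any probe set of a gene. Python 3.11.15 was used, with matplotlib 3.10.9, statsmodels 0.14.6, pandas 2.3.3 and numpy 2.4.6, and the scripts were tested on simulated data.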

Additional observations from a re-analysis of the deposited data

How the results depend on the processing

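With the deposited values, 2 member probe sets passed FC 1.5 with higher values on Myogel and 4 with lower values, 1 member gene was higher and 1 lower in the brightest probe set, and 3 of the other tight junction genes were higher and 4 lower. The counts below are given in this order. The shares of all probe sets and genes were computed with the deposited values only. After quantile normalization they were 3 and 1, 1 and 0, and 7 and 3, and after loess centring 3 and 1, 1 and 0, and 6 and 3. With the median log2 ratio set to 0 they were 2 and 2, 1 and 1, and 5 and 3. With an offset of 16 they were 1 and 2, 0 and 0, and 1 and 3, and with an offset of 50 they were 0 and 0, 0 and 0, and 0 and 1. With only probe sets whose higher value reached the median signal they were 2 and 2, 1 and 0, and 2 and 1. Without probe sets ending in _x_at, _s_at or _a_at they were 1 and 3, 1 and 1, and 2 and 4. With FC 1.2 they were 3 and 7, 1 and 2, and 11 and 9, with FC 2 they were 0 and 1, 0 and 0, and 0 and 3, and with a difference of 100 linear units 0 and 1, 0 and 0, and 0 and 0. With the mean of all probe sets for each gene, 0 member genes were higher and 0 lower, and 4 other genes were higher and 7 lower. With any probe set of a gene, 2 member genes were higher and 3 lower, and 13 other genes were higher and 15 lower.

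The median log2 FC of the member genes ranged from -0.17 to 0.08 over the alternatives, and that of the other tight junction genes from 0.03 to 0.16. Of 62 values of the 8 member genes under the alternatives, 61 moved by less than 1 SD of the log2 FC at their signal. The exception was the mean over both probe sets of TJP1, at -0.28 against 0.05 in the brightest. Some values could not move, because a filter or a mean over 1 probe set returned the deposited value. The SD is that across probe sets, 0.74 for CLDN4 and 0.75 for TJP3, so that a smaller move could still end a call at FC 1.5. Of the 16 member probe sets, 3 changed sign with the scaling of the arrays. TJP3 had no value above the median signal, and CGN had none without the _s_at probe sets. The causes of these changes were not tested. No paired analysis was possible because each surface is 1 array, and for the same reason no array could be left out. Low signal limits the values of CLDN4, TJP3 and the dimmer OCLN probe sets.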
